A study of Mus musculus with 6 samples.

Results

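The genes of the DNA replication machinery were followed in CD8+ T cells of C57BL/6 mice, a killer lymphocyte population. The set was a list of 52 gene symbols covering origin licensing, the replicative helicase, the polymerases, the sliding clamp with its loader and the factors that finish and copy chromatin behind the fork. All 52 were among the 55487 genes of the deposited tables, and all 52 passed the expression filter that kept 12350 genes for testing. Treatment lasted 48 h, with itaconate (a metabolite of the citric acid cycle's side branch, released in quantity by stimulated macrophages) at 5 mM, and controls received NaCl. There were 3 libraries of total RNA in each group, with summed expected counts of 18280217 to 23609543 in itaconate libraries and 20469874 to 31643408 in control libraries. Both groups came from the same strain, and no genotype, sex, age or way of activating the cells is named in the labels. Whether the 3 replicates of a group are different animals is not stated either, so the p-values reflect only how these libraries vary, which may be technical.

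A cell copies its genome once per division by first loading pairs of MCM helicase rings onto origins in G1, a step called licensing, and then switching those rings on in S phase. The origin recognition complex (ORC), CDC6 and CDT1 load the rings, CDC45 and the GINS complex turn them into the moving helicase, and polymerases held by the PCNA clamp copy both strands. T cells that have met antigen divide rapidly and need this machinery in quantity, and transcription factors of the E2F family are known to switch on many of its genes.

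The replication machinery was close to level between the groups, with 1 clear exception, the origin recognition subunit gene Orc5. Orc5 fell to 27.3 ± 2.07 CPM (counts scaled to library size with edgeR's TMM factors) with itaconate, against 37.6 ± 0.235 CPM in control (SD, n = 3 each), a log2 fold change of -0.46 ± 0.073 (SE) with an edgeR adjusted p of 0.00106. A further 6 genes passed the threshold of an adjusted p under 0.05 with smaller falls, to between 0.836 and 0.895 of the control level: Dna2, Ticrr, Orc6, Mcm3, Mcm4 and Chaf1a. None of the 52 was called higher in the reported edgeR test or by DESeq2 or limma. Cdt1 was called higher in 2 of the 16 alternative analyses and Pold1 in 1. At an unadjusted p under 0.05 in the reported edgeR test 3 were higher (14.2% of all tested genes were), namely Cdt1, Gins2 and Pold1. On the low side 14 were under 0.05 unadjusted, beside 12.3% of all tested genes. The 7 falls are 13.5% of the set, where 5.36% of all tested genes were called lower, and in either direction the same 7 stand beside 12.0% of all tested genes. The count of falls was 1 without itaconate replicate 2 (1.92% of the set, beside 2.99% of all tested genes). It was also 1 without itaconate replicate 3 (1.92%, beside 3.03%), and 2 without control replicate 2 (3.85%, beside 2.5%). Leaving out itaconate replicate 1 gave 6 (11.5%, beside 4.56%). Leaving out control replicate 1 gave 5 (9.62%, beside 3.79%), and control replicate 3 gave 6 (11.5%, beside 5.52%). DESeq2 gave 8 (15.4%, beside 5.47%). Limma on log2(TPM + 1), a length-scaled level, gave 2, Orc5 and Orc6 (3.85%, beside 1.68%). When effective transcript lengths entered the fit as offsets, 1 fall was left (1.92%, beside 1.96%).

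The median log2 fold change of the 52 genes was -0.07, against 0.0059 over all tested genes, and 36 of the 52 estimates lay below 0, where 48.6% of all tested genes did. Itaconate and control libraries were fully separated in CPM for 19 genes lower with itaconate and for 3 higher, beside 14.4% and 16.8% of all tested genes. For 48 of the 52, the 95% confidence interval of the fold change lay inside 1.25-fold in either direction, as it did for 45.6% of all tested genes. The set was also more abundant than most genes, with a median of 108.5 CPM against 24.9 CPM over all tested genes. The part of this level in the width of its intervals was not tested. The intervals that reached past 1.25-fold were those of Orc5 (-0.62 to -0.30), Dna2 (-0.40 to -0.11), Ticrr (-0.39 to -0.11) and Gins1 (-0.02 to 0.33). Summed over all 52 genes, the level was 9260.5, 8970.3 and 9155 CPM in itaconate replicates 1, 2 and 3, and 9634.6, 9442.3 and 9366.5 CPM in control replicates 1, 2 and 3. Each itaconate sum was thus below each control sum. In bulk RNA, fewer cells in S phase and less of these RNAs per cell cannot be told apart.

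**Figure D1:**
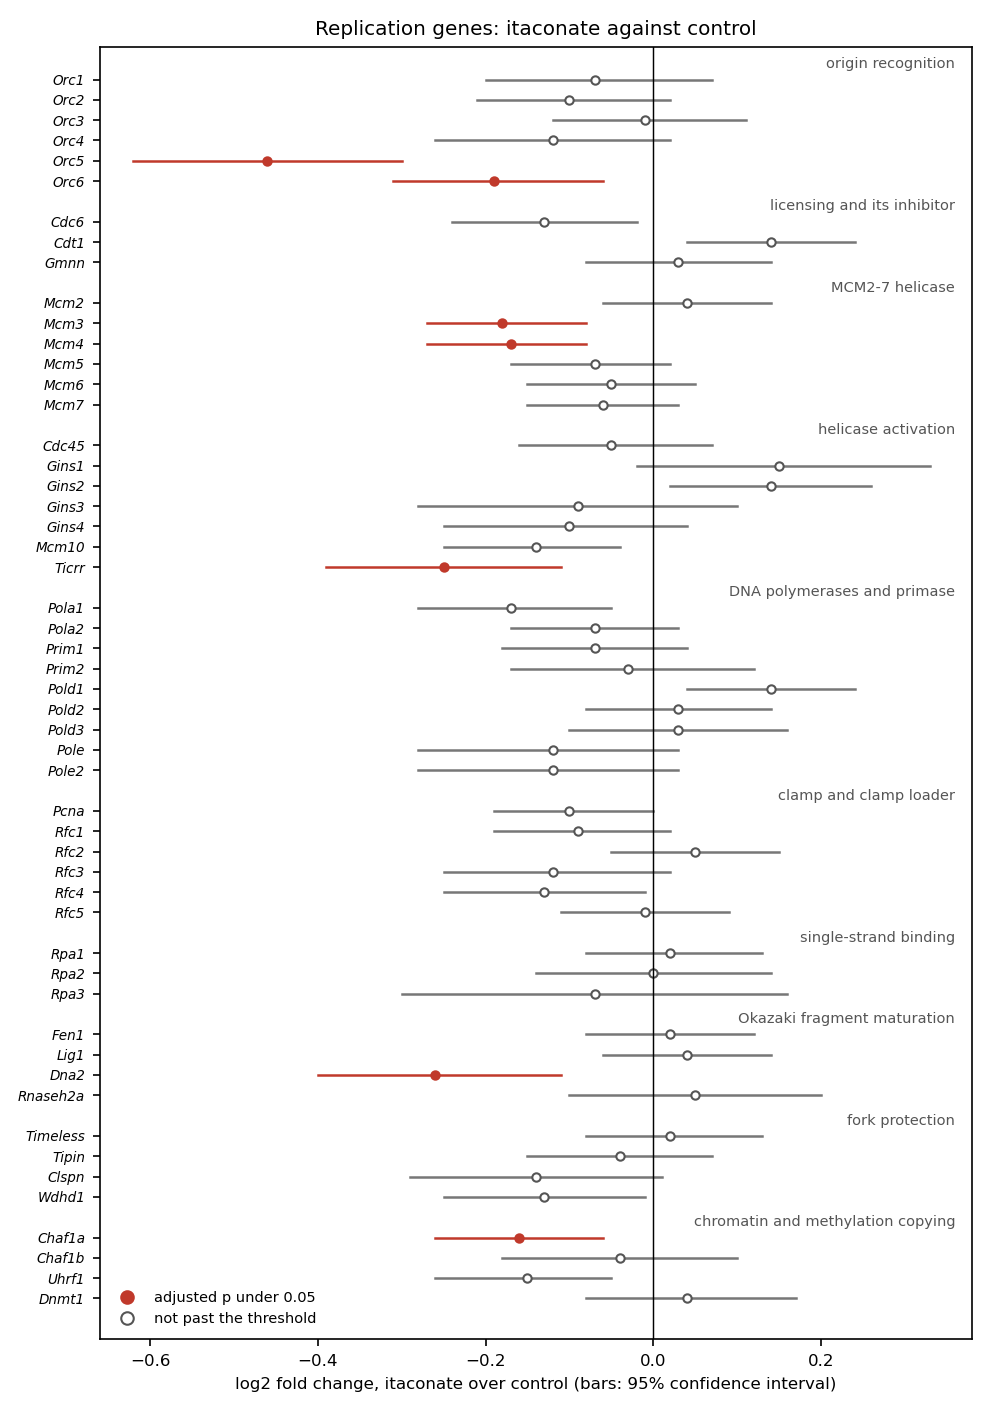
Log2 fold change of itaconate over control for each of the 52 replication genes, by role, with bars for the 95% confidence interval of the edgeR fit and filled red points for an adjusted p under 0.05. The 7 red genes all lie left of 0, Orc5 farthest at -0.46, and 48 of the 52 intervals lie inside 1.25-fold in either direction.

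**Figure D2:**
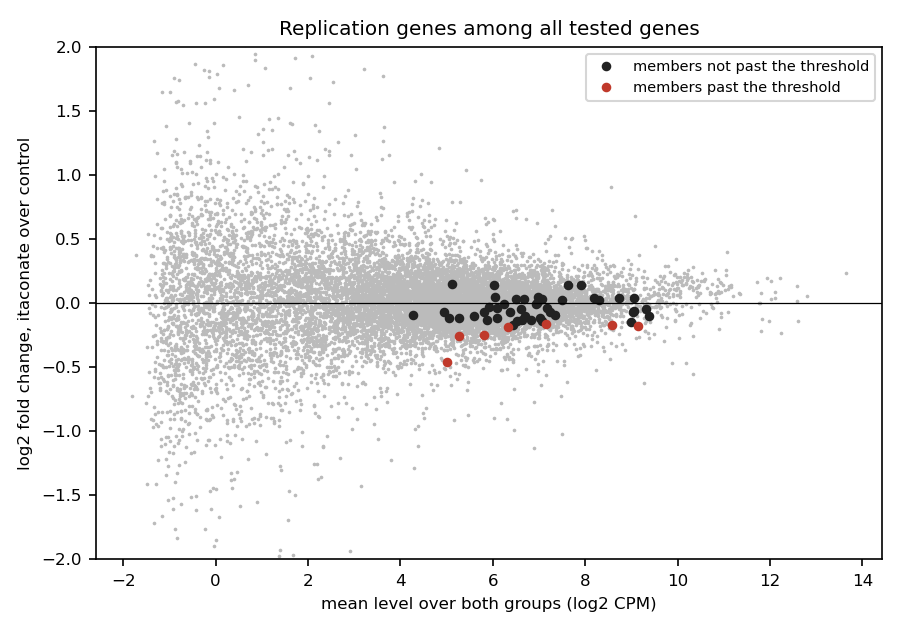
Log2 fold change of itaconate over control against the mean level over both groups in log2 CPM, for all 12350 tested genes (grey, with 29 outside the plotted range) and the 52 replication genes (black and red). The replication genes sit in the abundant part of the plot, between means of 19.2 and 667.7 CPM, and stay near 0.

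The libraries carried the markers of CD8 T cells. The 5 markers Cd8a, Cd8b1, Cd3e, Cd3d and Trac summed to 1503.9 to 1517.1 CPM in itaconate and 1273.3 to 1369.5 CPM in control libraries, and of them Cd8a rose (log2 fold change 0.38 ± 0.049, edgeR adjusted p 0.000297). The 10 markers of CD4 T cells, B cells, myeloid cells and NK cells summed to 6.6 to 20.1 CPM in itaconate and 8.06 to 15.4 CPM in control libraries, with 0 to 3 of them at a count of 0 in a library, and the highest sums were those of replicate 3 in each group. The part of these marker levels in the results was not tested. Control replicate 1 stood apart in fragment length: RSEM's effective length fell short of gene length by 258.64 bases there and by 229.21 to 239.06 bases in the other 5 libraries. Without it, 5 of the 52 genes were called lower (9.62%, beside 3.79% of all tested genes) and 1, Cdt1, higher (1.92%, beside 5.25%). The proliferation marker Mki67 stood at 568.3, 492.2 and 432.4 CPM in itaconate and 560.4, 497.0 and 484.1 CPM in control replicates 1 to 3, with overlap (edgeR adjusted p 0.831). The other proliferation markers, Top2a and Birc5, did not pass either, at 643 ± 36.8 and 153.1 ± 5.79 CPM with itaconate and 594 ± 28.4 and 141.2 ± 6.3 CPM in control (adjusted p 0.186 and 0.164). Both leaned higher with itaconate, by log2 fold changes of 0.11 and 0.12. Each was under 0.05 at the unadjusted edgeR p (0.0488 and 0.0403), as were 14.2% of all tested genes on the high side. The groups overlapped for Top2a and not for Birc5.

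Promoter sequence was examined because E2F is the known shared regulator of these genes. RefSeq promoters on GRCm38.p6, from 250 bases before to 50 bases after a gene's start, were found by symbol for 43 of the 52. Searched on both strands for the 8-letter E2F words TTTCCCGC, TTTGGCGC, TTTCGCGC and TTTGCCGC, which may overlap each other, 18 of the 43 (41.9%) held at least 1, against 5.01% of 9145 tested genes with a promoter and 2.6% of all 27025 genes in the table. The licensing and helicase genes carried it most often, in both Cdc6 and Cdt1 and in 4 of 5 MCM ring genes. Of the 7 genes that fell, 6 had a promoter, and only that of Mcm3 held such a word, while 17 of the 37 promoters of genes that did not pass did. The CCAAT box, the word bound by NF-Y, was in 27 of 43 (62.8%), against 43.4% of tested genes. These matches describe letters in a window and are not measured binding. The promoters of Mcm3, which holds the word and fell, of Mcm6 and Cdc6, which hold it and did not pass, and of Orc5, which fell most and has no such word in this window, are shown from the upstream end, with E2F words in capitals.
Mcm3, chr1:20820263-20820562 (minus strand): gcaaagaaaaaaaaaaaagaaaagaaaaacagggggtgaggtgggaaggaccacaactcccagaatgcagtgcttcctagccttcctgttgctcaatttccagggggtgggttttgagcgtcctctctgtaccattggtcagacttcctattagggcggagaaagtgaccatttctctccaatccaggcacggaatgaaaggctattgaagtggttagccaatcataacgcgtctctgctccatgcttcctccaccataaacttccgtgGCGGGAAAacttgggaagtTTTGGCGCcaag
Mcm6, chr1:128359656-128359955 (minus strand): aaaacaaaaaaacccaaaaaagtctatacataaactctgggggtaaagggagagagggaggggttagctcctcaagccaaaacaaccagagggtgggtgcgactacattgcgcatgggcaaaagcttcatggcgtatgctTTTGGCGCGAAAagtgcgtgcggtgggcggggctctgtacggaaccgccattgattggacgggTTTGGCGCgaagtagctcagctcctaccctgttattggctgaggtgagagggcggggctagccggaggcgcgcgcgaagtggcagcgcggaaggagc
Cdc6, chr11:98907901-98908200 (plus strand): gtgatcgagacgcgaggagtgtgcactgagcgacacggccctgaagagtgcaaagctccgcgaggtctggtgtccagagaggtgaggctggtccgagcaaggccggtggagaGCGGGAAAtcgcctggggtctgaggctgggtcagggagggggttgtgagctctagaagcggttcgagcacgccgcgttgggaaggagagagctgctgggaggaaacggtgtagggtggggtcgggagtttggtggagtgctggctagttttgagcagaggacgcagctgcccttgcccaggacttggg
Orc5, chr5:22550289-22550588 (minus strand): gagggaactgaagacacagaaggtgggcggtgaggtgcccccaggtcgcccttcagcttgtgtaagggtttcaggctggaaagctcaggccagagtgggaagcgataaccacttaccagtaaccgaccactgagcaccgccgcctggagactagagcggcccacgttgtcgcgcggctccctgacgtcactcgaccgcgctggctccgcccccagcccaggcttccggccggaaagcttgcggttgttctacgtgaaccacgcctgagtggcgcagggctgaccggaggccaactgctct
In Mcm3 the words begin 19 and 38 bases past the start base, counted as 0. In Mcm6 they begin at -110, -106 and -47, and the first and second of them overlap. In Cdc6 the word begins at -138 from the RefSeq start. In GENCODE M21 the Cdc6 gene starts at base 98907801, upstream of the whole window, so there the word lies inside the gene.

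The origin recognition complex marks the sites where replication can begin, and its ATPase subunits hold the DNA while the MCM rings are loaded. Orc5, the gene of 1 of these ATPase-fold subunits, had 25.8, 26.4 and 29.6 CPM in itaconate replicates 1, 2 and 3, and 37.6, 37.8 and 37.4 CPM in control replicates 1, 2 and 3. The lowest control value was above the highest itaconate value, and the control libraries were nearly equal. These levels rest on 475 to 691 counts in itaconate and 783 to 1177 counts in control libraries. Orc5 (ENSMUSG00000029012) is a protein-coding gene on chromosome 5 at 22486485 to 22550429 in GRCm38, its expected counts were whole numbers in all 6 libraries, and its mean effective length was 1850 bases with itaconate and 1843 in control. Its fall passed in all 16 alternative analyses, with log2 fold changes from -0.53 to -0.42 and adjusted p-values up to 0.0293.

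Orc6, the small subunit outside the ATPase ring, had 72.5, 74.0 and 77.5 CPM in itaconate and 81.4, 83.7 and 89.9 CPM in control replicates 1 to 3 (log2 fold change -0.19 ± 0.057, edgeR adjusted p 0.0486). The groups did not overlap, but Orc6 no longer passed when itaconate replicate 1, 2 or 3 or control replicate 2 or 3 was left out (adjusted p 0.0766 to 0.136), or with effective lengths as offsets (-0.20, adjusted p 0.104). Orc6 also overlaps Vps35 on the other strand, and its expected count was not a whole number in 1 of the 6 libraries. The other 4 subunit genes did not pass. Orc1, the gene of the largest subunit, was at 54.5 ± 4.17 CPM with itaconate and 57.1 ± 0.661 CPM in control. Orc2 was at 100.2 ± 4.45 and 107.1 ± 4.28 CPM, and Orc4 at 37.2 ± 1.58 and 40.3 ± 1.29 CPM, in itaconate and control cells. Orc3 was nearest to level, at 75.2 ± 0.629 CPM with itaconate and 75.5 ± 2.76 CPM in control, with an interval of -0.12 to 0.11. All 6 estimates of the complex lay below 0, with a median log2 fold change of -0.11, and its summed level was 360 to 376.5 CPM in itaconate and 394.3 to 407.1 CPM in control libraries. Per length, Orc6 was the most abundant of these RNAs at 86.4 ± 3.08 TPM (the authors' length-scaled level) with itaconate and 104 ± 1.92 TPM in control. Orc5 was the lowest in both group means, at 17.7 ± 1.62 TPM with itaconate and 25.5 ± 1.02 TPM in control. In control cells Orc5 was level with Orc1, at 26.5 ± 0.978 TPM, while with itaconate it lay below the 24.2 ± 2.35 TPM of Orc1.

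**Figure D3:**
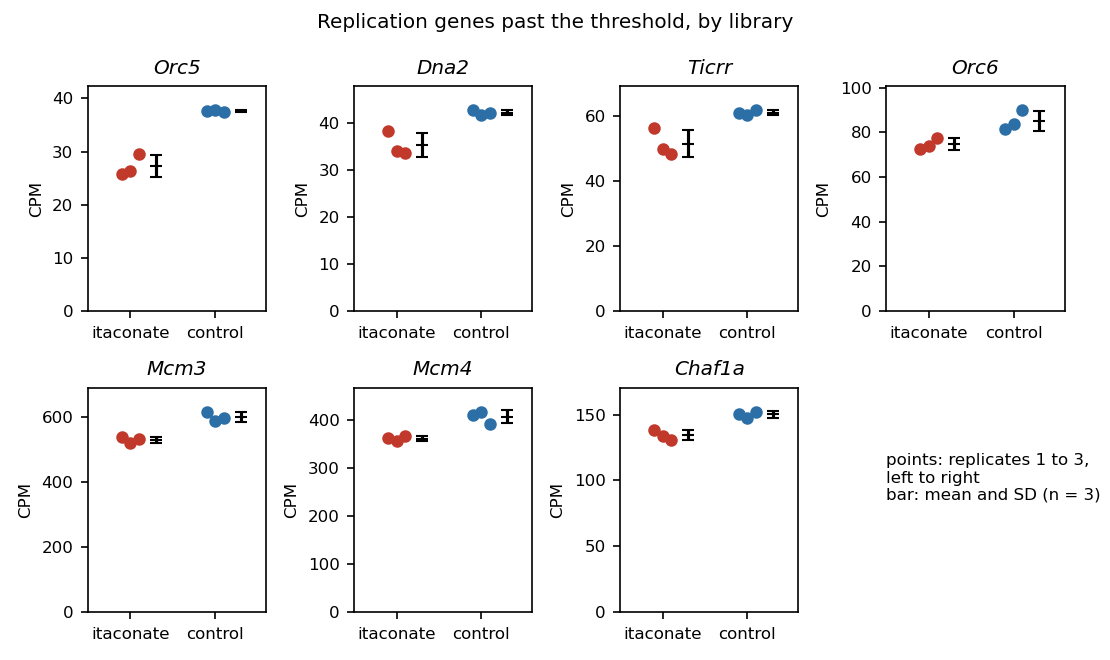
CPM of the 7 replication genes past the threshold in the 3 itaconate (red, left) and 3 control libraries (blue, right), with the mean and SD beside the points and axes from 0. In each panel every itaconate point lies below every control point, and Orc5, at 25.8 to 29.6 CPM against 37.4 to 37.8 CPM, has the largest fold change of the 7.

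Licensing needs CDC6 and CDT1, which bring the MCM rings to ORC, and is shut off in S phase by geminin, the product of Gmnn, which binds CDT1. No gene of the 3 passed. Cdc6 had 114, 105.2 and 106 CPM in itaconate and 122.5, 116.4 and 116.3 CPM in control replicates 1 to 3, without overlap (log2 fold change -0.13 ± 0.052, edgeR adjusted p 0.13). Cdt1 went the other way, with 206.8, 212.6 and 205.1 CPM in itaconate and 197.6, 188.3 and 182.4 CPM in control replicates 1 to 3, also without overlap (0.14 ± 0.047, adjusted p 0.0741). Cdt1 passed without control replicate 1 (adjusted p 0.0473). Gmnn lay between, at 89.0, 92.8 and 94.3 CPM in itaconate and 89.7, 90.6 and 90.0 CPM in control replicates 1 to 3, with overlap and an interval of -0.08 to 0.14. Per length, Gmnn was the most abundant of the 3 at 151 ± 3.09 TPM with itaconate and 157 ± 6.42 TPM in control, followed by Cdt1 at 130 ± 3.26 and 124 ± 8.86 TPM and Cdc6 at 49.5 ± 4.1 and 56.3 ± 3.03 TPM in itaconate and control cells.

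MCM2 to MCM7 are the 6 related ATPases of the helicase ring, which holds 1 copy of each. Mcm3 had 539.6, 521.4 and 534 CPM in itaconate and 617.9, 588.9 and 597.3 CPM in control replicates 1 to 3, and the groups did not overlap (log2 fold change -0.18 ± 0.044, edgeR adjusted p 0.0173). Mcm4 had 362.1, 356.9 and 366.4 CPM in itaconate and 411.6, 417.8 and 393 CPM in control replicates 1 to 3, again without overlap (-0.17 ± 0.044, adjusted p 0.022). Both falls were near 0.89 of the control level. The call of Mcm3 was lost without itaconate replicate 2 (adjusted p 0.0711) or 3 (0.0689), and that of Mcm4 without any 1 of the itaconate libraries (0.0573 to 0.0827) or control replicate 2 (0.098), and neither passed with effective lengths as offsets. The offset estimates were -0.13 for Mcm3 (adjusted p 0.209) and -0.19 for Mcm4 (0.0564).

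The other 4 ring genes did not pass, although Mcm5 and Mcm7 were lower in all 3 itaconate libraries than in any control library. Mcm5 had 510.6, 490 and 527.2 CPM in itaconate and 540.9, 537.8 and 530.6 CPM in control replicates 1 to 3 (-0.07 ± 0.045). Mcm7 had 526.5, 516.2 and 518 CPM in itaconate and 536.9, 538.9 and 546.6 CPM in control replicates 1 to 3 (-0.06 ± 0.042), and it overlaps Cops6 and Ap4m1 on the other strand. Both estimates stood within 1.25-fold of control, intervals included. Mcm6 had 650.2, 601.5 and 619.5 CPM in itaconate and 660.8, 644 and 631 CPM in control replicates 1 to 3, with overlap (-0.05 ± 0.046). Mcm2, whose product is a target of the kinase that fires origins, had 436.2, 416.6 and 444.8 CPM in itaconate and 439.3, 412.8 and 410.4 CPM in control replicates 1 to 3, with overlap and an interval of -0.06 to 0.14. The 6 ring genes therefore ran from -0.18 to 0.04 on the log2 scale, with a sum of 2902.5 to 3025.2 CPM in itaconate and 3108.8 to 3207.4 CPM in control libraries. Although the protein ring holds its subunits in equal number, their RNAs per length were not equal, from 131 ± 5.82 TPM for Mcm4 to 330 ± 9.0 TPM for Mcm3 with itaconate, and from 156 ± 9.39 to 377 ± 14.9 TPM for the same genes in control.

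Loaded rings stay idle until CDC45 and GINS join them, with the help of MCM10 and of treslin, the product of Ticrr. Ticrr fell to 51.6 ± 4.24 CPM with itaconate, against 61.1 ± 0.738 CPM in control. Its values were 56.4, 49.9 and 48.4 CPM in itaconate and 61.0, 60.5 and 61.9 CPM in control replicates 1 to 3, without overlap (log2 fold change -0.25 ± 0.065, edgeR adjusted p 0.0251). The call was lost without itaconate replicate 2 (adjusted p 0.0979) or 3 (0.127) or control replicate 2 (0.0754) or 3 (0.0508), and with effective lengths as offsets (0.112), where the estimate was -0.22. Mcm10 leaned the same way without passing, at 128.1 ± 3.97 CPM with itaconate and 141.6 ± 6.02 CPM in control (adjusted p 0.0781). Cdc45 was at 92.4, 101.3 and 96.6 CPM in itaconate and 102.9, 95.8 and 101.3 CPM in control replicates 1 to 3, with overlap (-0.05 ± 0.054).

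The GINS genes, whose products form a complex of 4 subunits, did not share a direction. Gins2 was at 68.0 ± 3.18 CPM with itaconate and 61.6 ± 1.35 CPM in control (0.14 ± 0.058, edgeR adjusted p 0.13), and its counts were divided with other genes in all 6 libraries. Gins1 was at 36.4 ± 3.1 and 32.7 ± 2.84 CPM, Gins3 at 18.6 ± 1.53 and 19.8 ± 0.232 CPM and Gins4 at 46.7 ± 2.86 and 50.1 ± 2.44 CPM in itaconate and control cells. Per length, Gins1, Gins2 and Gins4 lay within 50.0 to 62.5 TPM in the group means, while Gins3 was at 10.1 ± 1.04 TPM with itaconate and 11.6 ± 1.27 TPM in control.

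**Figure D4:**
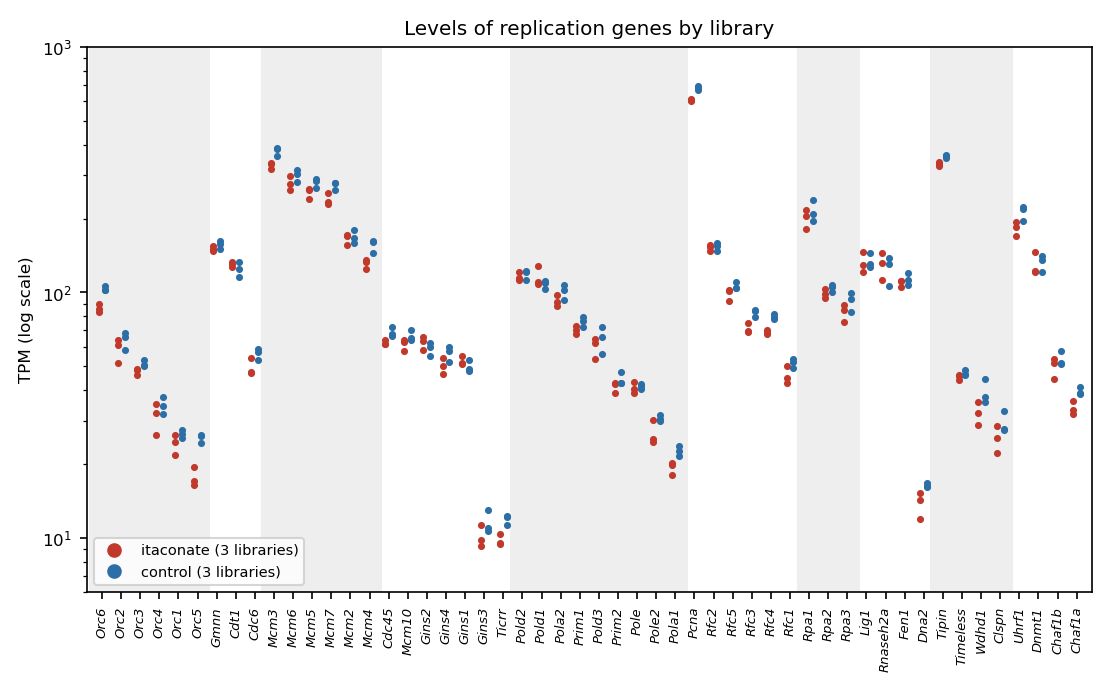
TPM (log scale) of the 52 replication genes in the 3 itaconate (red) and 3 control libraries (blue). Shaded and white blocks hold, from the left, origin recognition, licensing, the MCM ring, helicase activation, polymerases and primase, clamp and loader, single-strand binding, Okazaki fragment maturation, fork protection and chromatin copying. Pcna is the highest, with group means of 608 TPM in itaconate and 680 TPM in control, and Gins3 and Ticrr are the lowest.

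Polymerase alpha with primase starts each new strand, polymerase delta extends the lagging strand and polymerase epsilon the leading strand. None of the 9 genes of these enzymes passed in the reported edgeR test or with DESeq2 or limma. At an unadjusted p under 0.05 in the reported edgeR test stood 1 lower, Pola1, and 1 higher, Pold1. Both passed once the replicate number entered the edgeR fit as a block, Pola1 lower (adjusted p 0.0245) and Pold1 higher. Pola1, the catalytic subunit of polymerase alpha, had 83.2, 78 and 83.8 CPM in itaconate and 95.3, 90.6 and 89.5 CPM in control replicates 1 to 3, without overlap (log2 fold change -0.17 ± 0.054, edgeR adjusted p 0.0598). Pold1, the catalytic subunit of polymerase delta, had 261.6, 244.5 and 249.8 CPM in itaconate and 236.2, 230.5 and 221 CPM in control replicates 1 to 3, also without overlap (0.14 ± 0.047, adjusted p 0.072). The catalytic genes of the 2 enzymes thus leaned to opposite sides, and their difference was not tested. Pole, the catalytic subunit of polymerase epsilon, had 135.7, 114.9 and 120.5 CPM in itaconate and 142, 139.4 and 123.5 CPM in control replicates 1 to 3, with overlap. The accessory subunit gene Pold2 had the highest level per length of the 9, at 116 ± 4.33 TPM with itaconate and 119 ± 5.2 TPM in control. Its CPM were 127.1, 137.2 and 141.8 in itaconate and 132.7, 134 and 130.9 in control replicates 1 to 3, with overlap. Pola2, Prim1, Prim2, Pold3 and Pole2 had log2 fold changes from -0.12 to 0.03, and the summed levels of the 9 genes overlapped, at 999.4 to 1035.3 CPM in itaconate and 990 to 1053.2 CPM in control libraries.

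PCNA is the ring-shaped clamp that keeps polymerases on DNA, and replication factor C (RFC), of 5 subunits, opens it and loads it. Pcna was the most abundant of all 52 RNAs per length, at 608 ± 6.31 TPM with itaconate and 680 ± 12.5 TPM in control. Its CPM were 623.1, 656.6 and 656.4 in itaconate and 681.4, 687.3 and 701.2 in control replicates 1 to 3. The groups did not overlap, but the difference did not pass (log2 fold change -0.10 ± 0.044, edgeR adjusted p 0.181), and Pcna counts were divided with other genes in all 6 libraries. None of the RFC genes passed with edgeR, DESeq2 or limma, and only Rfc4 was under 0.05 unadjusted. Rfc4 had 54.6, 57.3 and 57.3 CPM in itaconate and 61.3, 61.8 and 62.2 CPM in control replicates 1 to 3 (-0.13 ± 0.055, adjusted p 0.145), without overlap, and it lies across Eif4a2, a highly expressed gene of the other strand. Rfc1, the large subunit, was at 158.9 ± 6.96 CPM with itaconate and 168.6 ± 1.08 CPM in control, and Rfc3 at 65.6 ± 3.73 and 71.1 ± 3.88 CPM. Rfc2 was at 129 ± 2.62 CPM with itaconate and 124.5 ± 3.49 CPM in control, and Rfc5 at 121.4 ± 1.8 and 122 ± 2.98 CPM, with intervals of -0.05 to 0.15 and -0.11 to 0.09.

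RPA coats the single strands that the helicase exposes, and its 3 genes had a median log2 fold change of 0.00. Rpa1, the large subunit, had 328, 307.1 and 321.5 CPM in itaconate and 330.8, 303.7 and 306.5 CPM in control replicates 1 to 3 (log2 fold change 0.02 ± 0.049). Rpa2 was at 124.4 ± 8.86 CPM with itaconate and 124.3 ± 8.71 CPM in control. Rpa3, the small subunit, had 26.7, 31.9 and 32.1 CPM in itaconate and 27.0, 34.5 and 33.9 CPM in control replicates 1 to 3, with the widest interval of the 3, from -0.30 to 0.16. All 3 overlapped between the groups, and none passed, also not at an unadjusted p under 0.05 or with DESeq2 or limma.

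Okazaki fragments, the short pieces of the lagging strand, are trimmed by the nucleases FEN1 and DNA2 and by RNase H2, and joined by DNA ligase 1. Dna2 was the only gene of the 4 to pass, with 38.3, 34.1 and 33.6 CPM in itaconate and 42.8, 41.8 and 42.1 CPM in control replicates 1 to 3 (log2 fold change -0.26 ± 0.068, edgeR adjusted p 0.0247). The groups did not overlap, and itaconate replicate 1 lay nearest to control. The call was lost without itaconate replicate 2 (adjusted p 0.096) or 3 (0.113), without control replicate 1 (0.057) or 2 (0.0745), and with effective lengths as offsets (0.289), where the estimate was -0.19. The others, each above Dna2 in mean CPM in both groups, had intervals that include 0. Lig1 had 308.6, 286.9 and 291.1 CPM in itaconate and 294.4, 283.7 and 283.1 CPM in control replicates 1 to 3 (0.04 ± 0.046), Fen1 was at 182.8 ± 4.18 CPM with itaconate and 180.1 ± 4.54 CPM in control, and Rnaseh2a at 67.3 ± 4.37 and 64.7 ± 5.24 CPM.

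Timeless, Tipin and claspin travel with the fork and carry the signal of stalled forks, and WDHD1 ties polymerase alpha to the helicase. None of the 4 genes passed in the reported edgeR test or with DESeq2 or limma. Clspn was called lower in 1 of the 16 alternative analyses. Wdhd1 had 99.8, 87.8 and 95.9 CPM in itaconate and 105, 102.6 and 103.1 CPM in control replicates 1 to 3, without overlap (log2 fold change -0.13 ± 0.056, edgeR adjusted p 0.145), and was the only 1 of them under 0.05 unadjusted. Clspn was at 87.5 ± 8.74 CPM with itaconate and 96.5 ± 4.94 CPM in control, and Timeless at 128.5 ± 4.74 and 126.5 ± 1.73 CPM. Tipin had 137.1, 148.4 and 143.5 CPM in itaconate and 142.2, 143.9 and 154.6 CPM in control replicates 1 to 3, with overlap (-0.04 ± 0.052). TIMELESS and TIPIN act as a pair. Per length, Tipin RNA was at 334 ± 6.69 TPM with itaconate and 358 ± 5.97 TPM in control, against 45.3 ± 1.17 and 46.9 ± 1.34 TPM for Timeless. In CPM the 2 were much nearer, with Tipin at 143 ± 5.7 with itaconate and 146.9 ± 6.72 in control. The mean effective length was 512.2 bases for Tipin in both groups, and 3398 with itaconate and 3372 in control for Timeless.

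Behind the fork, the CAF-1 subunits CHAF1A and CHAF1B deposit new histones, and UHRF1 recruits the methyltransferase DNMT1 to half-methylated DNA. Chaf1a had 138.5, 133.7 and 130.9 CPM in itaconate and 150.5, 147.5 and 152.2 CPM in control replicates 1 to 3, without overlap (log2 fold change -0.16 ± 0.047, edgeR adjusted p 0.0391). It kept its call only when itaconate replicate 1 was the library left out, with adjusted p-values of 0.0703 to 0.159 for each other omission and 0.197 with effective lengths as offsets, where the estimate was -0.16, and its counts were divided with other genes in all 6 libraries. Its partner Chaf1b was at 67.5 ± 3.13 CPM with itaconate and 69.5 ± 5.42 CPM in control, with overlap. Uhrf1 had 492.6, 459.1 and 498.2 CPM in itaconate and 558.5, 545.8 and 510.2 CPM in control replicates 1 to 3, without overlap (-0.15 ± 0.051). It missed the threshold in the reported edgeR test (adjusted p 0.0611), and passed with DESeq2 (0.0423) and without control replicate 3 (0.0249). Dnmt1 was at 539.5 ± 41.0 CPM with itaconate and 523.6 ± 27.7 CPM in control, with overlap and an interval of -0.08 to 0.17.

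A second list, of 62 further genes around the fork with 63 entries in the tables, also held more falls than rises in the reported test. Unlike that of the 52 genes, its summed level overlapped between the groups. The sums were 7005.9 to 7236.3 CPM in itaconate and 7146.9 to 7329.4 CPM in control libraries. Of the 63 tested entries, 6 fell (9.52%, against 5.36% of all tested genes) and 1 rose (1.59%, against 6.68%), with a median log2 fold change of -0.03. The fallers were Atad5, Hells, Cul4b, Pole3, Etaa1 and E2f7. Atad5, whose product unloads PCNA from finished DNA, fell to 48.0 ± 4.48 CPM with itaconate, against 59.9 ± 2.54 CPM in control (-0.32 ± 0.071, edgeR adjusted p 0.00956), a call lost without itaconate replicate 3 (0.0599). Hells, a chromatin remodeller needed for DNA methylation, fell to 194 ± 7.04 CPM with itaconate, against 224 ± 8.88 CPM in control (-0.21 ± 0.049, adjusted p 0.0134), a call lost without itaconate replicate 2 (0.0674). Cul4b, a scaffold of the ubiquitin ligase family that destroys CDT1 in S phase, fell to 60.3 ± 2.15 CPM with itaconate, against 70.5 ± 1.62 CPM in control (-0.23 ± 0.056, adjusted p 0.0177), a call lost without itaconate replicate 2 (0.0808) or control replicate 2 (0.0569). None of the 6 passed with effective lengths as offsets, where the log2 fold change was -0.19 for Atad5, -0.21 for Hells, -0.23 for Cul4b and for Pole3, -0.25 for Etaa1 and -0.59 for E2f7.

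Pole3, a histone-fold subunit of polymerase epsilon, fell to 68.8 ± 5.12 CPM with itaconate, against 81.5 ± 4.14 CPM in control (-0.24 ± 0.065, edgeR adjusted p 0.0246), a call lost without itaconate replicate 2 (0.114) or control replicate 3 (0.0655). Etaa1, an activator of the checkpoint kinase ATR, fell to 26.5 ± 1.07 CPM with itaconate, against 31.5 ± 0.732 CPM in control (-0.25 ± 0.071, adjusted p 0.0327), a call lost without itaconate replicate 1 or 3 or control replicate 1 or 2 (0.0595 to 0.111). The E2F factors themselves moved both ways. E2f2 was the gene that rose, to 96.8 ± 3.42 CPM with itaconate, against 83.5 ± 2.98 CPM in control (0.22 ± 0.054, adjusted p 0.018), a call lost without itaconate replicate 2 (0.0542) or 3 (0.0948) or control replicate 3 (0.0613). E2f7, a repressor of the family, fell to 7.45 ± 1.5 CPM with itaconate, against 10.4 ± 0.625 CPM in control (-0.49 ± 0.15, adjusted p 0.0409), which failed when itaconate replicate 2 or 3 or any control library was omitted (0.0534 to 0.166). E2f1, an activator, had 57.9, 59.0 and 61.5 CPM in itaconate and 55.2, 55.2 and 57.4 CPM in control replicates 1 to 3, and did not pass (adjusted p 0.355). None of the 11 genes of the firing kinases and their cofactors passed in the reported edgeR test or with DESeq2 or limma. Cdc7, Dbf4 and Cdk2 are among these 11. In the reported test 2 were lower at an unadjusted edgeR p under 0.05, Donson and Mtbp.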

How the data were processed

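The authors deposited 1 RSEM gene table per library. Expected counts, per the file headers, are their estimates of reads per gene, not normalised, and the TPM values, a length-scaled unit, are likewise the authors' own, per the file headers. Effective lengths in the deposited tables served as offsets in 2 alternatives, without and with the replicate number as a block. Bowtie 0.12.2 and the builds mm8 and mm10 are named in the submitters' processing notes without a role, and for the RSEM version, annotation release and strand setting the entry is: not given in the sources used here. Between 5.99% and 6.93% of genes per library were off a whole number by more than 0.001 in expected count, as happens where RSEM splits reads between genes, as for 14 of the 52 replication genes in at least 1 library. Expected counts were rounded.

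Itaconate was compared with control by edgeR 4.0.16 in R 4.3.3 (quasi-likelihood test, two-sided, robust, TMM factors of 0.9866 to 1.017), on genes kept by filterByExpr. The filter asked for a minimum count of 10, scaled to library size, in as many libraries as a group holds, and 15 counts in total. Those libraries could come from either group. P-values were adjusted by Benjamini-Hochberg over all 12350 tested genes, and intervals use the fit's degrees of freedom. No test was made over the set itself. Alternatives used DESeq2 1.42.0, and limma 3.58.1 on log2(TPM + 1) and log2(TPM + 0.1). The tests were tried on simulated counts. Coordinates come from GENCODE M21 (GRCm38) by the identifiers in the files, and all 52 genes are protein-coding there. Of these 52, 30 overlap another annotated gene.

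The members and lists were chosen with earlier results of these data known. Values in every library are given for genes past the threshold, the smallest adjusted p and highest TPM of each role group, and 10 genes fixed by name, and for E2f1 of the second list and the marker Mki67. Group means are given for up to 2 called genes of each sublist of the second list. Values of Pold1, Pole and other genes outside this rule were chosen after being seen.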

Additional observations from a re-analysis of the deposited data

How the results depend on the processing

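Of the 52 replication genes, Orc5 was called lower in all 16 alternatives run, and 39 were called in none of them and not in the reported test. The 7 falls became 2, Orc5 and Orc6, with limma on log2(TPM + 1) or log2(TPM + 0.1). They became 1 with effective lengths as offsets, and 1 to 6 without 1 library each. Dna2, Ticrr, Mcm3, Mcm4 and Chaf1a lost their calls in both limma analyses. Orc6 (edgeR adjusted p 0.06) and Chaf1a (0.0566) lost theirs with upper-quartile factors. They were 5 to 10 in the other alternatives, apart from the block with length offsets. With DESeq2 size factors the share of the set was 13.5%, beside 5.65% of all tested genes. It was 9.62% beside 4.62% with upper-quartile factors, 15.4% beside 4.2% with no filter and 13.5% beside 6.31% with a filter of 1 CPM. It was 15.4% beside 5.47% with the DESeq2 test and 19.2% beside 8.94% with the replicate block. The block with length offsets gave 1.92% beside 2.12%. The count of rises, 0, ranged from 0 to 1 without 1 library each. The median log2 fold change of the set, -0.068, was -0.127 and -0.13 with limma on TPM, where the median of all tested genes was -0.05 and -0.057, -0.066 with effective lengths as offsets, and -0.077 to -0.056 without 1 library each. Over all tested genes the 825 rises and 662 falls became 133 and 207 with limma on log2(TPM + 1), 141 and 215 on log2(TPM + 0.1), and 325 and 242 with effective lengths as offsets. Without 1 library each they were 407 to 707 rises and 319 to 693 falls. In the second list the 6 falls and 1 rise became 0 and 0 with limma on TPM (both pseudocounts) and with length offsets, and 2 to 7 and 0 to 1 without 1 library each, and the rises were 2 with DESeq2 and with no filter. The cause of these changes was not tested.

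With the replicate number as a block, 10 replication genes were lower and 2, Cdt1 and Pold1, higher, and 1315 of all tested genes were higher and 1104 lower. In the second list 11 were then lower and 2 higher. With the block and length offsets, 1 replication gene was lower, the second list had 0 and 0, and 336 genes were higher and 262 lower. The deviations of same-numbered libraries correlated at 0.111, 0.0303 and -0.00525 for replicates 1, 2 and 3. Itaconate replicate 2 correlated best with control replicate 3 (0.0618). The labels state no pairing, and correlations this small cannot decide whether same-numbered libraries are paired. Among the named genes, 443 of the single alternative values kept their side of the threshold, 94 lost a call and 7 gained 1. The 443 include the values of named genes that the reported test did not call, which had no call to lose. Precision was lower for some less abundant genes of the set: the SE of the log2 fold change was 0.088 for Gins3 and 0.083 for Gins1. It was 0.044 for Mcm3 and for Mcm4, and 0.059 for Dnmt1, which lay near Mcm3 in CPM. How much of this is counting error was not tested.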
